A study of Mus musculus with 2 samples.

Results

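The Hox genes of the 4 clusters were described in endothelial cells of the embryonic mouse kidney. Members were all genes whose symbol names a Hox gene of cluster a, b, c or d, taken from array probe sets annotated with exactly 1 gene. There were 33 of them among 18193 measured genes, read by 48 probe sets.

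Hox genes encode homeodomain transcription factors that give cells their position along the body axis. Mammals carry them in 4 clusters on different chromosomes, and genes at matching places in different clusters form a paralogue group. Low group numbers are used from the hindbrain backwards, and high numbers mark the lumbar, sacral and tail levels, the limbs and the external genitalia. In the mouse kidney, group 11 genes are needed for induction of the metanephros and group 10 genes for the cortical stroma. Hox proteins bind DNA together with cofactors of the TALE class, the Pbx, Meis and Pknox proteins.

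The data are 2 arrays of 1 group, E15.5 (Theiler stage 23) kidney endothelium of CD-1 mice that express GFP from the Tie2 promoter. Tie2 is an endothelial receptor kinase that some blood cells also carry, so sorted GFP cells can include those. The labels describe each sample as a pool of around 5 to 10 kidneys, carry the name Flk1 in their titles, and call the source the endothelium of the renal vein and artery. The study had no control, treated or adult sample on these arrays, so no contrast exists, no test was possible and no p-value is given. The labels do not say whether the pools came from separate litters, and the spread between the arrays may be technical.

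Values below are intensities in arbitrary units, for replicate 1 and then replicate 2. A gene was called above background when it exceeded, on both arrays, the 95th percentile of 83 probe sets for sensory receptor genes, which was 202.5 in replicate 1 and 204.1 in replicate 2. Where a gene had several probe sets, the one with the highest mean log2 intensity stood for it. Probe sets differ in how strongly they bind, so intensities of different genes were not ranked. Of 18193 genes, 11102 (61.0%) were above background. All 13 measured endothelial markers were above it (13 of 13), Tek, which encodes Tie2, among them (15908 and 21499), and of 23 genes not expected in kidney, 2 were (Gdf9 and Krt10). Among markers of other cell types, 8 of 9 macrophage, 8 of 8 blood progenitor, 11 of 12 renal stroma, 5 of 8 mural, 4 of 7 erythroid, 5 of 10 nephron progenitor, 2 of 7 early nephron, 2 of 4 podocyte and 5 of 12 ureteric bud genes were above background. Csf1r (34030 and 36806), Adgre1 (4305 and 7632), Cd68 (2358 and 2218) and Lyz2 (8262 and 8857) were among the macrophage genes above it. Itgam (131 and 94.4) was not. These lists can hold genes that endothelial cells also use, so the counts do not show which other cells were in the pools. The Hox values below can therefore not be assigned to endothelial cells alone.

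Of the 33 Hox genes, 18 (54.5%) were above background on both arrays, against 61.0% of all measured genes, so the share was near that of genes in general. Hoxa11 passed on the second array alone, and 14 genes passed on neither. The members that were above lay in paralogue groups 2 to 10, where 18 of 24 measured genes (75.0%) were above background. Within that range group 7 (Hoxa7 and Hoxb7) had 0 of 2 above it. Groups 9 and 10 had 6 of 7 members above it, and groups 11 to 13 had 0 of 7. These ranges were drawn from the calls themselves, so groups 2 to 10 hold all 18 by construction. The 75.0% is therefore not a result to set against the share of all genes. With a limit at 2 times the main one 9 Hox genes were above background, and with a fixed limit of 100 there were 24, among them Hoxa11, Hoxa13, Hoxb1 and Hoxd13. Because a pool holds many cells, a low intensity from few cells that use a gene and one from little RNA in each cell cannot be told apart.

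**Figure D1:**
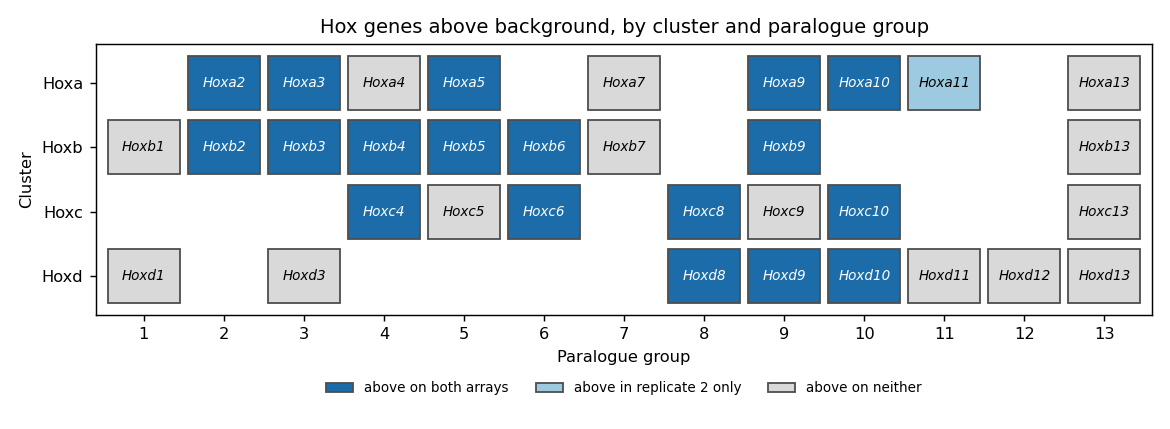
Each box is 1 measured Hox gene, placed by cluster (rows) and paralogue group (columns), and coloured by whether its intensity exceeded the background limit. The 18 genes above background on both arrays lie in groups 2 to 10, and none of the 7 measured genes of groups 11 to 13 was above background on both.

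The start-site windows of genes on either side of groups 10 and 11 are shown because at the main limit the calls change there. This boundary was drawn from the calls and depends on the limit, since Hoxa11, Hoxa13 and Hoxd13 passed a fixed limit of 100. Hoxc10, also above background, had no window, and Hoxc11 was not measured. Hoxa10 and Hoxd10 were above background, Hoxd11 was not, and Hoxa11 was above it on 1 array. Each window runs from 250 bases before to 50 bases after a RefSeq start site (GRCm38.p6), read 5' to 3' along the gene. Capitals mark matches on either strand to 4 motifs. These are the TATA box (TATAAA), the CCAAT box (CCAAT), a site shape that PBX proteins bind with HOX proteins (TGATTNAT) and the repeat unit that nuclear receptors bind (AGGTCA). Hoxa10 and Hoxd11 each have a pair of start sites in the table. The windows lie at chr6:52240805-52241104 (minus strand) and chr6:52234890-52235189 (minus strand) for Hoxa10, chr6:52245761-52246060 (minus strand) for Hoxa11, chr2:74691641-74691940 (plus strand) for Hoxd10, and chr2:74679308-74679607 (plus strand) and chr2:74682073-74682372 (plus strand) for Hoxd11.
Hoxa10 first window: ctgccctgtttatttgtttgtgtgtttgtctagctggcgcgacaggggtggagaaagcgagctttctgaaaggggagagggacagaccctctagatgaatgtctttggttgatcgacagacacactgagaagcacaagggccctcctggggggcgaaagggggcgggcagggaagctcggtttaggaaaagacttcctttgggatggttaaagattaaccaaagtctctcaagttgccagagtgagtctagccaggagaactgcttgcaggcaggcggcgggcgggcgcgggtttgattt
Hoxa10 second window: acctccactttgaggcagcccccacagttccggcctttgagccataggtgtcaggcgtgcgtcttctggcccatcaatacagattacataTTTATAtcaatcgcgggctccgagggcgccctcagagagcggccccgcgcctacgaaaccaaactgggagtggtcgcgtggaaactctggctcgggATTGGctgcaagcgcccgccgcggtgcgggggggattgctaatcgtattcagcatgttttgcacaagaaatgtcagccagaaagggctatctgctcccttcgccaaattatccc
Hoxa11: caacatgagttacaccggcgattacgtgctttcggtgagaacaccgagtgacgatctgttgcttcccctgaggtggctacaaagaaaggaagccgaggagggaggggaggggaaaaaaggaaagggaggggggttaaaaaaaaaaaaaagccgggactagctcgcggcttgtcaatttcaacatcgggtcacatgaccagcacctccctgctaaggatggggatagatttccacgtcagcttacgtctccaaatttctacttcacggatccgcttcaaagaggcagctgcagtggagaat
Hoxd10: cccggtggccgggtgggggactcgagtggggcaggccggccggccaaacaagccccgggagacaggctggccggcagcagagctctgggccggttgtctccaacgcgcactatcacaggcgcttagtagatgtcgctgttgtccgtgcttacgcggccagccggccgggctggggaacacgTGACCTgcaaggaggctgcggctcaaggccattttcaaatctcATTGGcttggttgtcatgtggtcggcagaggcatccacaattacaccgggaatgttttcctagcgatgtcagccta
Hoxd11 first window: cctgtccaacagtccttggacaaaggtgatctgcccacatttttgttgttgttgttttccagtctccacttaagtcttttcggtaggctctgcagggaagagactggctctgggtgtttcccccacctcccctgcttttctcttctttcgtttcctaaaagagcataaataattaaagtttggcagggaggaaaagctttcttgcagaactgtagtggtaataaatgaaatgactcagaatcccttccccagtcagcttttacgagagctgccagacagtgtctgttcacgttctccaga
Hoxd11 second window: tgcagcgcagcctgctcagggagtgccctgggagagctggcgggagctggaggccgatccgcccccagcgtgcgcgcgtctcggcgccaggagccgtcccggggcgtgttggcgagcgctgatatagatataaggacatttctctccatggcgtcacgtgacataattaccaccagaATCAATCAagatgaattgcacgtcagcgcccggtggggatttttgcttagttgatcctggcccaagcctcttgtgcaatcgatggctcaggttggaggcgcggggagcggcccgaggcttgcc

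Start sites of the same gene could differ in CpG content. The first Hoxd11 window held 4 CpG dinucleotides and the second 25, while the Hoxd10 window held 22. The Hoxa10 windows held 12 and 21, and the Hoxa11 window 15. A TATA box match and a CCAAT box match lay in the second Hoxa10 window, a CCAAT match and a nuclear receptor match in the Hoxd10 window, and a PBX-HOX match in the second Hoxd11 window.

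The table held 24 windows of Hox genes. Windows of 10 members above background had a median of 14 CpG (11 windows, range 4 to 29), and those of 9 measured members that were not had a median of 17.5 (10 windows, range 4 to 45), so the ranges overlapped. The median of all 32851 windows was 7. CCAAT occurred in 15 of 24 Hox windows (62.5%), against 37.4% of all windows. The other motifs were found in 4 Hox windows for TATAAA (16.7%, against 13.6% of all), 7 for AGGTCA (29.2%, against 16.3%) and 2 for TGATTNAT (8.33%, against 3.22%). These matches describe letters in a window and are not binding sites.

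In the Hoxa cluster 5 of 9 measured genes were above background. Hoxa9, known from blood progenitors and leukaemia and, in human endothelial cells, from vessel growth, gave 17614 and 22278. Hoxa5, which acts in lung and in the axial skeleton, gave 2729 and 3302, and Hoxa10, known from the uterus, gave 1207 and 1480. Every probe set of these 3 genes was above the limits on both arrays.

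The anterior members Hoxa2 and Hoxa3 were above the limits as well. Hoxa2, which patterns the hindbrain and the second pharyngeal arch, gave 352 and 279. Hoxa3, needed for the thymus and parathyroid, gave 616 and 396. Below the limit on both arrays were Hoxa4 (86.8 and 72.7), Hoxa7 (48.1 and 153) and Hoxa13 (123 and 188), a gene of digits and genitalia. Hoxa11, a gene of kidney induction, gave 196 and 244, on either side of the limit.

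The Hoxb cluster had 6 of 9 measured genes above background, a run of group numbers 2 to 6 and then group 9. Hoxb2, a hindbrain gene, gave 1417 and 1211. Hoxb3, which promotes capillary growth in human endothelial cells, gave 394 and 404. Hoxb4, used to expand blood stem cells, gave 837 and 756.

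Hoxb5, reported to act on the Kdr gene in mouse endothelial precursors, gave 1605 and 1221. Hoxb6 gave 715 and 538, and Hoxb9 gave 347 and 222, its second value lying just inside the limit. Hoxb1, a gene of the fourth rhombomere, gave 195 and 141. Hoxb7, whose promoter drives many ureteric bud transgenes in the mouse, gave 85.2 and 50.8, and Hoxb13 gave 3.35 and 11.4. None of these last 3 reached the limit on either array.

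In the Hoxc cluster 4 of 7 measured genes were above background, and all 4 gave intensities under 1000 on both arrays. So did Hoxa2, Hoxa3, Hoxb3, Hoxb4, Hoxb6, Hoxb9 and Hoxd10 among the members above background in other clusters. Hoxc4 gave 330 and 405, and Hoxc6, a gene of the thoracic level, gave 239 and 490. Hoxc8, of the lower thoracic level, gave 298 and 458. Hoxc10, known from lumbar motor neurons and, with its paralogues, from the kidney stroma, gave 353 and 764. Replicate 2 was the higher array in each of these genes.

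Hoxc9 lay just outside the limit on both arrays, at 201 and 196. Hoxc5 was below it at 136 in replicate 1 and just below it at 203 in replicate 2. The other Hoxc5 probe sets gave 10.4 and 9.56, and 15.3 and 21.4. Hoxc13, a hair follicle gene, gave 6.67 and 19.5. Group 9 was thus above background through Hoxa9, Hoxb9 and Hoxd9 and not through Hoxc9.

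The Hoxd cluster had 3 of 8 measured genes above background, which were the neighbours Hoxd8, Hoxd9 and Hoxd10. Hoxd8 gave 3430 and 2359, and Hoxd9 gave 571 and 1006. Hoxd10, which holds back vessel growth in human endothelial cells, gave 318 and 836. These 3 genes are followed in the cluster by Hoxd11, Hoxd12 and Hoxd13, none of which was above background.

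Hoxd11 gave 6.97 and 74.4, Hoxd12 gave 4.88 and 6.70, and Hoxd13, a gene of digits and genitalia, gave 146 and 180. On the other side, Hoxd3, which induces an invasive state in human endothelial cells, gave 168 and 77.9, and Hoxd1 gave 5.15 and 124. Both anterior Hoxd genes therefore stayed below the limits, as did Hoxb1, the other measured gene of group 1. In group 3, Hoxa3 and Hoxb3 were above the limits where Hoxd3 was not. Each of those genes also had a probe set below the limits, at 37.6 and 65.4 for Hoxa3 and 121 and 190 for Hoxb3.

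**Figure D2:**
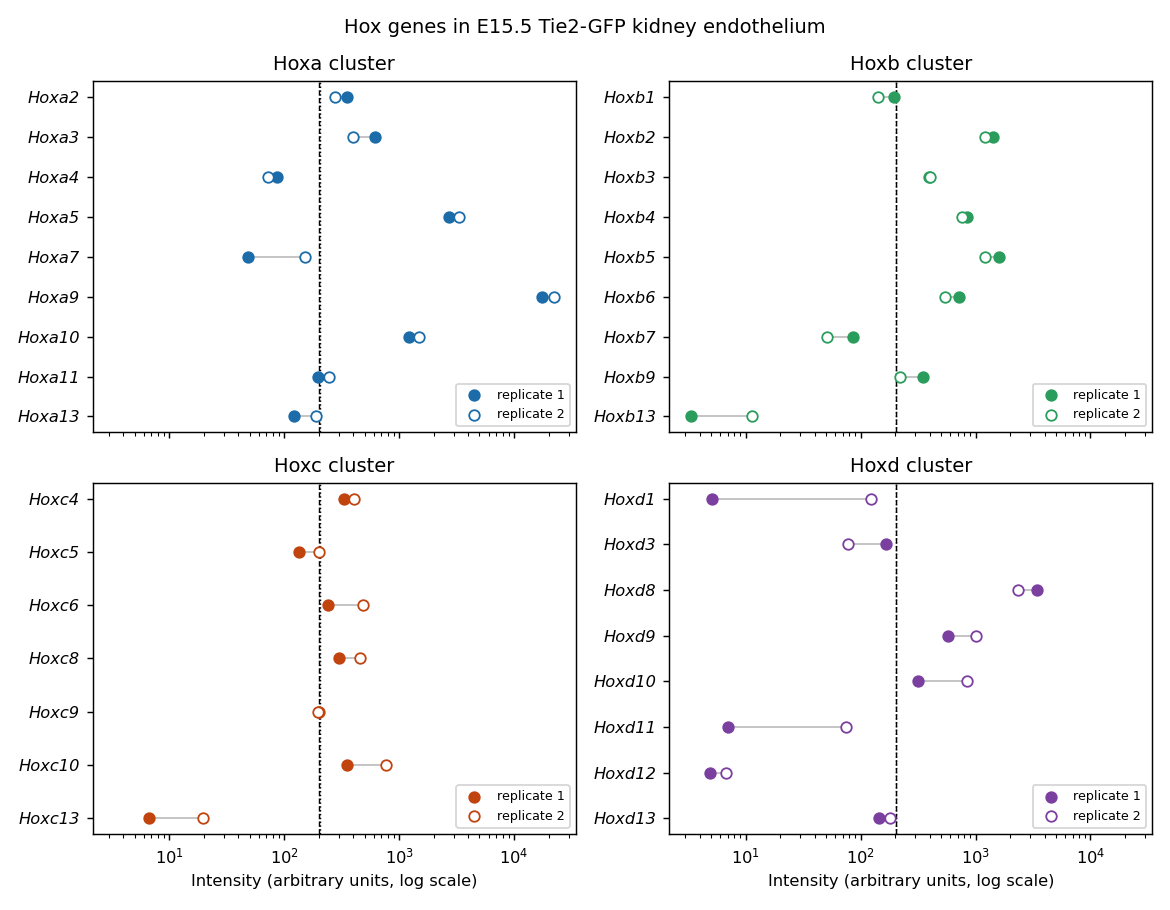
Intensity (log axis) of each of the 33 Hox genes in replicate 1 (filled) and replicate 2 (open), by cluster, with the background limits of replicate 1 (dashed) and replicate 2 (dotted), 202.5 and 204.1. Intensities of different genes come from different probe sets and have no order between genes, so the plot shows only the side of the limit and the gap between the arrays.

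Several probe sets were present for 11 of the Hox genes. In 4 of them every probe set was above background (Hoxa5, Hoxa9, Hoxa10 and Hoxd8), in 3 none was (Hoxa4, Hoxc5 and Hoxd13), and in 4 they disagreed (Hoxa3, Hoxb3, Hoxb4 and Hoxc6). Over all genes with at least 2 probe sets above background, the log2 difference between the arrays had a median range of 0.502 between probe sets of a gene. Over the 5 such Hox genes (Hoxa3, Hoxa5, Hoxa9, Hoxa10 and Hoxd8) the median range was 1.20. These values show that for those genes the direction between arrays depends on the probe set.

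In all 5 of these genes the sign of the difference turned between probe sets: it ran between -0.53 and 0.67 in Hoxa3, between -0.30 and 0.10 in Hoxa9 and between -0.26 and 0.29 in Hoxa10. The second Hoxd8 probe set gave 1330 and 2677, higher in replicate 2, where the first was higher in replicate 1. The second Hoxa5 probe set gave 1650 and 856, higher in replicate 1. Hoxa9 gave 396 and 380 on its other probe set.

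Differences between the arrays were taken as log2 of replicate 1 minus replicate 2 after an offset was removed, for genes above background. Among the 18 Hox genes, 8 were higher in replicate 1 and 10 in replicate 2, and the median was -0.12, against 0.04 over all genes above background, of which 45.8% were higher in replicate 2. By cluster the medians were -0.24 for Hoxa, 0.34 for Hoxb, -0.79 for Hoxc and -0.78 for Hoxd. Higher in replicate 2 were 3 of 5 Hoxa genes, 1 of 6 Hoxb genes, 4 of 4 Hoxc genes and 2 of 3 Hoxd genes. The signs of Hoxa3, Hoxa5, Hoxa9, Hoxa10 and Hoxd8 differ between their probe sets. With 1 group these are descriptions of 2 arrays, and genes are not replicates.

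Over a 2-fold difference was seen in 3 of the 18, Hoxc6 (2.00-fold), Hoxc10 (2.11-fold) and Hoxd10 (2.57-fold), all higher in replicate 2. Over all genes above background 4.85% differed over 2-fold, and 2.57% did so with replicate 2 higher. Each of the 3 had a geometric mean intensity under 1000, where the spread was wider: 7.99% of all such genes differed over 2-fold. The count was 1 with 100 added to each intensity and 0 at the doubled limit. The SD of the difference was 0.634 over the 18 Hox genes, against 0.507 over all genes above background. Under 1000 it was 0.72 over 12 Hox genes, against 0.587 over all genes of that range.

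Markers of renal stroma moved with the arrays. All 11 stroma genes above background were higher in replicate 2, with a median difference of -1.86, and 9 of them by over 2-fold. The transcription factor Foxd1, which defines cortical stroma, read 775 and 1775. The growth factor receptor Pdgfra read 720 and 4811, Tbx18 read 282 and 1115, and the matrix proteoglycan Dcn read 993 and 3690. The summed intensity of the 12 measured stroma genes was 27436 in replicate 1 and 90548 in replicate 2. Tcf21 (186 and 352) was above background in replicate 2 only. Their part in the higher Hoxc6, Hoxc10 and Hoxd10 values of replicate 2 was not tested.

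Mural genes, those of pericytes and smooth muscle, had a median of -0.56 over the 5 above background, and their 8 measured members summed to 8035 and 13371. Pdgfrb gave 2246 and 4253, Rgs5 1212 and 1838, Cspg4 684 and 857, and Acta2 2289 and 3693, while Tagln (98.8 and 334) and Myh11 (32.4 and 278) passed the limit on the second array alone and Des (77.5 and 106) on neither. Endothelial markers had a median of 0.23 over 13 genes and sums of 182881 and 160194. Of the 13, 10 were higher in replicate 1, among them Cdh5 (22435 and 20733), and 3 were higher in replicate 2, namely Tek, Kdr (8939 and 12139) and Pecam1 (1257 and 2247). Their part in the differences of the Hox genes was not tested.

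**Figure D3:**
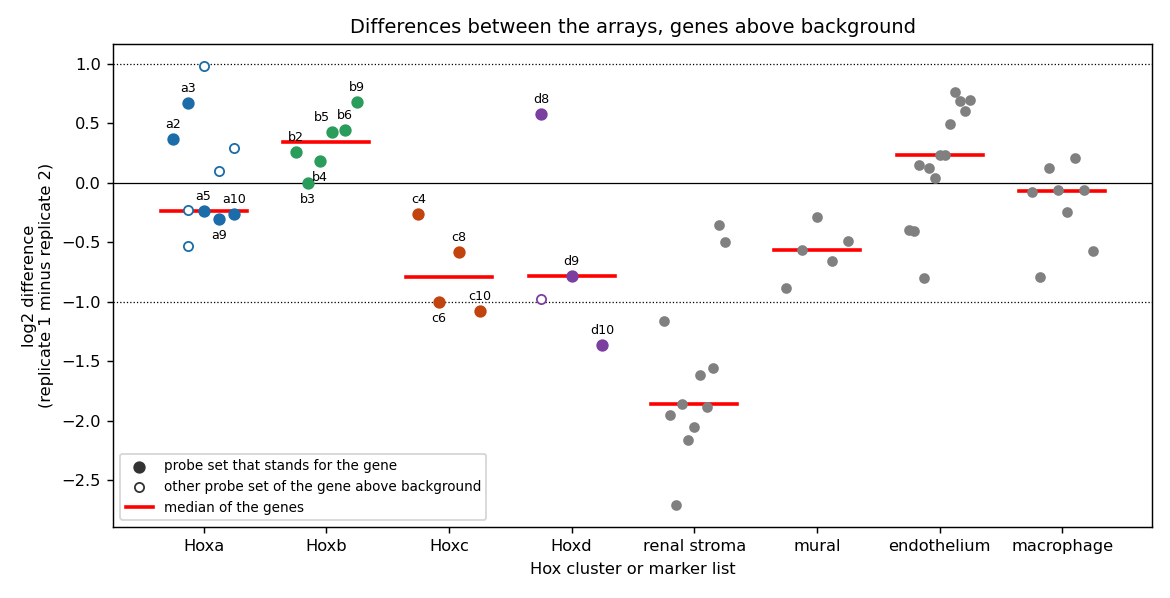
Log2 difference between replicate 1 and replicate 2 (vertical axis) for Hox genes above background by cluster and for 4 marker lists, where filled points are the probe sets that stand for genes, open points are other probe sets of the same genes, red lines are medians and dotted lines mark 2-fold. Hoxc and Hoxd medians lie at -0.79 and -0.78, Hoxa at -0.24 and Hoxb at 0.34, and the stroma list lies at -1.86.

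**Figure D4:**
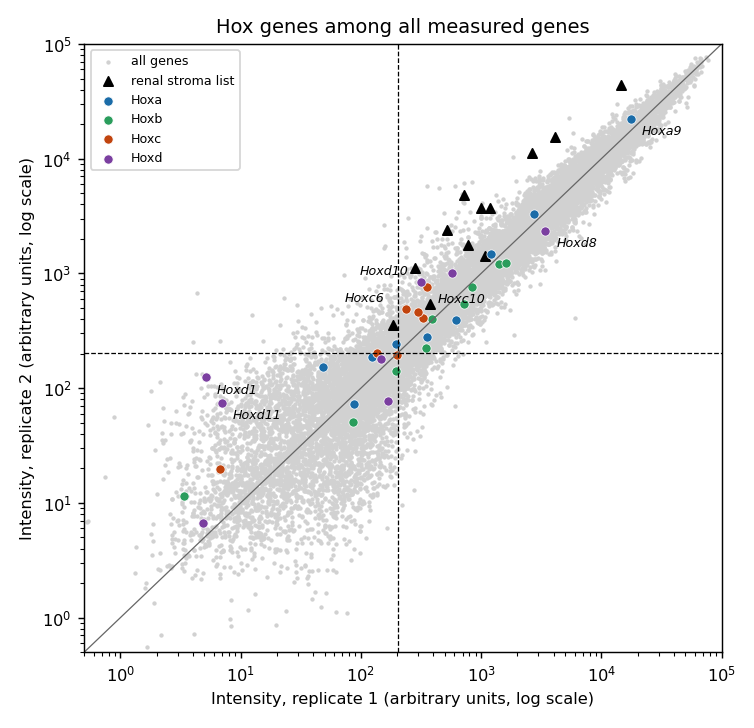
Intensity of every measured gene in replicate 1 (horizontal, log axis) against replicate 2 (vertical, log axis), with the Hox genes by cluster, the renal stroma list as triangles, the background limits as dashed lines and the line of equal intensity. Hoxc6, Hoxc10 and Hoxd10 lie above the line of equal intensity, as do the stroma genes.

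Of the cofactors through which Hox proteins bind DNA, 5 of 8 measured TALE genes (62.5%) were above background, a share near the 61.0% of all genes. Pbx2 gave 5126 and 8502, Pbx3 8557 and 8142, Meis1 1629 and 3005, Meis2 13308 and 12961, and Pknox1 641 and 460. Pknox2 (147 and 290) passed on the second array alone, and Pbx4 and Meis3 were below it on both arrays.

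Genes that set Hox expression through chromatin were listed next. Of 15 Polycomb genes, which keep Hox genes silent, 13 (86.7%) were above background, beside 61.0% of all genes, with Pcgf2 (182 and 137) and Cbx7 (199 and 195) below. With every probe set of a gene required to pass, 6 of the 15 were above it, beside 39.1% of all genes. Ezh2, the subunit that methylates histone H3, gave 16079 and 15618, and the related Ezh1 gave 1345 and 1689. Eed gave 12285 and 15716, and Suz12, another core subunit, gave 31598 and 26204. Trithorax genes keep Hox genes active. All 10 measured genes of a list of trithorax and Mll complex genes were above background (10 of 10), beside 61.0% of all genes. With every probe set required to pass, 8 were. Among the 10, Kmt2a (Mll) gave 756 and 1699 and differed over 2-fold. Men1, which joins the same complex, gave 1731 and 1064, and the shared subunits Ash2l and Wdr5 gave 4419 and 5394, and 6229 and 7969.

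Of 14 genes of retinoic acid, a signal that switches on anterior Hox genes in the embryo, 9 (64.3%) were above background, near the 61.0% of all genes. The receptors Rara (321 and 260), Rarb (5649 and 3344), Rarg (1212 and 984) and Rxra (2576 and 2549) were above it. The receptor Rxrg (88.1 and 179) and the synthetic enzyme Aldh1a1 (60.1 and 152) were not, and Aldh1a3 (70.2 and 456) passed in replicate 2 alone. Other synthetic enzymes, Aldh1a2 (384 and 696) and Rdh10 (1127 and 2275), were above background on both arrays. Of 9 other regulators of Hox genes, 5 (55.6%) were above background, among them Ctcf, a protein that bounds chromatin loops (16146 and 13857), Gmnn (8558 and 11434) and Egr2, a hindbrain regulator (1233 and 2256). Gdf11 (191 and 149) and Fgf8 (10.3 and 8.67) were below the limit on both arrays, and Zbtb16 (132 and 218) was below it in replicate 1.

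Homeobox genes related to the Hox genes but outside the 4 clusters followed. None of 8 measured ParaHox and Evx genes was above background on both arrays (0 of 8, beside 61.0% of all genes), including Cdx1 (14.9 and 9.43), Cdx2 (145 and 164), Cdx4 (45.9 and 4.67), Gsx1 (14.4 and 15.6), Evx1 (52.5 and 43.1) and Evx2 (84.5 and 74.8), which stand next to the Hoxa and Hoxd clusters. Of 23 measured genes flanking the clusters, 18 (78.3%) were above background, beside 61.0% of all genes, with a median difference of -0.03. Evx1 and Evx2 are counted among these as well. With every probe set of a gene required to pass, 10 of the 23 were above it, beside 39.1% of all genes. Beside Hoxa, Cbx3 gave 300 and 286, Snx10 gave 997 and 1629, and Skap2 gave 11772 and 14536. Beside Hoxb, Calcoco2 gave 66.4 and 16.2, below the limit on both arrays, and Ttll6 gave 249 and 174, above it in replicate 1 alone. Beside Hoxd, whose cluster had 3 of 8 members above background, Mtx2 gave 3876 and 4891 and Lnpk gave 268 and 539.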

How the data were processed

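The authors deposited 1 intensity per probe set on a linear scale for each of 2 arrays of 45101 probe sets. Labels describe RNA amplified in 2 rounds and labelled with biotin, and the submitters' processing notes name GCOS without a version. The 2%-trimmed mean was 1500.0 on both arrays, so values had been scaled before deposit. The published methods concern a different array platform and were therefore not used for these arrays. No detection calls were used here. The number of arrays limits the precision.

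Of the probe sets, 34945 had 1 gene, 932 several, 9160 none and 64 were controls. Identifiers of all 33 Hox genes matched the gene table (GRCm38.p6). Differences were log2 of replicate 1 minus replicate 2, after the medians over probe sets above background were made equal (offset -0.035). With 1 group there was no test. Scripts ran in Python 3.11.15 with numpy 2.4.6 and pandas 2.3.3 and were tested on simulated data. Every measured Hox gene was named. Of the lists of cofactors, regulators, neighbours and of endothelial, stromal and mural markers the rule was the first 4 measured members in list order and at most 3 members whose call differed from the majority. The macrophage list follows the same rule, and other cell type lists are given by counts. Genes named outside the rule were chosen after their values were seen. Members and lists were chosen with earlier results of these data known. Alternatives changed the limit, the probe set that stands for a gene, the normalization, the pseudocount and the arrays used.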

Additional observations from a re-analysis of the deposited data

How the results depend on the processing

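The count of Hox genes above background fell to 9 with a limit at 2 times the main one (404.9 and 408.2), where Hoxa kept 3, Hoxc 0 and groups 2 to 10 a total of 9. It was 15 at the 99th percentile, where Hoxc kept 2 (Hoxb9, Hoxc6 and Hoxc8 were lost), and 24 at a fixed limit of 100, which put 4 genes of groups 1 and 11 to 13 above it and 72.7% of all genes. Leaving out a replicate gave 0 to 1 genes in those groups. With every probe set of a gene required to pass, 14 Hox genes were above background. The count over 2-fold fell to 0 at the doubled limit and to 1 with log2 of intensity plus 100. The Hoxa median turned to 0.29 with probe sets that carry no suffix letter, and the Hoxd median was -0.14 at the doubled limit. The probe set chosen turned the sign of Hoxa3 (-0.14 and -0.23), Hoxa5 (0.11 and 0.98), Hoxa10 (0.29) and Hoxd8 (-0.05), and Hoxb3, near 0, turned with quantile normalization (0.06). The cause was not tested. Of 123 summary values under alternatives, 112 stayed near the main value and 11 moved. Of 180 counts of the other gene lists, 152 stayed near and 28 moved. Near was a loose rule: it took a count of 24 in place of 18. It also took any median within 0.507, the SD over all genes above background, whatever its sign. The median over the Hox genes thus counted as near though it turned from -0.121 to 0.139 at the doubled limit. It was -0.003 with probe sets that carry no suffix letter. No paired analysis was possible because there is 1 group.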

Other observations

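Probe sets within the clusters that name another transcript, or several genes, were outside the rule for Hox genes. The antisense transcript Hoxd3os1 gave 1925 and 2941, above both limits, where Hoxd3 itself was below them, and its other probe set gave 55.9 and 8.86. Hoxb5os gave 235 and 47.4, above the limit in replicate 1 only. Hoxa11os gave 104 and 124 on one probe set and 15.0 and 20.9 on another, below both limits. A probe set annotated with Hoxb8 and Hoxb7 gave 315 and 144. Probe sets annotated with Hoxd4 and Hoxd3 gave 43.1 and 102, and 23.6 and 30.6.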
